A study of Mus musculus with 3 samples.

Results

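Keratin and desmosome transcripts were followed in single cells of the mouse soft palate, the posterior part of the palate, at E14.5 (embryonic day). The genes were chosen by name and by abundance, as every keratin gene and 10 desmosome genes with at least 20 unique molecular identifiers (UMIs, tags that count each captured transcript once) over the 3 libraries. Of 63 gene names that matched, 34 reached this minimum, 24 of 53 keratin names and 10 of 10 desmosome names. The other 29 were keratins, 4 of them with 0 UMIs. The count tables listed 32285 genes, of which 17124 had at least 20 UMIs. There were 2 control libraries and 1 *Osr2-Cre;Alk5fl/fl* library, all from the soft palate of C57BL/6 embryos. *Alk5* is the older name of *Tgfbr1*, the type I TGF-β receptor, and *Osr2-Cre* recombines floxed alleles in palatal mesenchyme, so epithelial cells are not its main target. The genotype of the controls was not further described in the labels, and neither was the number of embryos pooled in a library. In the text below, sets of 3 values are given in the order control 1, control 2 and mutant.

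Keratins are the intermediate filament proteins of epithelia. A filament needs a type I keratin and a type II keratin in equal parts, and the partners change with the kind of epithelium. *Krt8* and *Krt18* pair in simple epithelia, *Krt5* and *Krt14* in the basal layer of stratified epithelia, and *Krt6a*, *Krt16* and *Krt17* mark periderm, skin appendages and wounded epithelium. Desmosomes tie the keratin networks of neighbouring cells together. Their cadherins, the desmogleins and desmocollins, bind plakoglobin (*Jup*) and plakophilins inside the cell, and these hold desmoplakin (*Dsp*), which anchors the filaments. The palatal epithelium has a basal layer that depends on the transcription factor p63, and it is covered by flat periderm cells before the shelves fuse.

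The members lie mostly in the 2 keratin gene clusters of the mouse genome (GRCm38, GENCODE M21). The type I genes, from *Krt222* to *Krt17*, span chr11:99232761-100261029, and *Jup* lies close by on the same chromosome, at chr11:100368958-100397763. The type II genes, from *Krt80* to *Krt8*, span chr15:101347444-102004482. *Krt18* (chr15:102028180-102032027) is a type I gene, yet it lies next to its partner *Krt8* at the end of the type II cluster. *Dsp* is at chr13:38151294-38198577 and *Perp* at chr10:18845020-18857073. Neighbouring copies can share reads. Of the 60-base words in the last 500 bases of the transcript, 11.3% were shared with *Gm11597* for *Krt16*, 5.22% between *Krt14* and *Krt17*, 3.85% with *Krt25* for *Krt27* and 0.68% with *Krt31* for *Krt33b*, so the counts of these genes are less certain than those of the others. *Pkp1* alone overlaps a gene on its own strand, *Gm36938*, where strand does not separate the reads.

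Promoter windows of 250 bases before and 50 bases after the RefSeq start (GRCm38.p6) were at hand for 17 of the 34 genes. The windows of 4 genes on which the comparisons turn are shown, 5′ to 3′ on the strand of the gene, in lower case. They are those of the filament partners *Krt8* and *Krt18*, of the basal keratin *Krt5* and of *Jup*. The window listed for *Krt14* began inside the GENCODE span of the gene and is not shown. The GENCODE span of *Krt8* ends at 102004482, inside its window. More of that window than the 50 bases after the RefSeq start therefore lies within the gene. Both strands were searched for TATAAA (the core of a TATA box), GCCNNNGGC (the core bound by AP-2 factors) and GGGCGG (a GC box), and the matches are in capitals.
Krt5, chr15:101712856-101713155, minus strand: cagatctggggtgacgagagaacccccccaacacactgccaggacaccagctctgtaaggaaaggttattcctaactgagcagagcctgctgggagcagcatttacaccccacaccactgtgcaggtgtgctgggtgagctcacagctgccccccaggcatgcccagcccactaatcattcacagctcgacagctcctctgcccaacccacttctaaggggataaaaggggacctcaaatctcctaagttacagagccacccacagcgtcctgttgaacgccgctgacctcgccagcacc
Krt8, chr15:102004293-102004592, minus strand: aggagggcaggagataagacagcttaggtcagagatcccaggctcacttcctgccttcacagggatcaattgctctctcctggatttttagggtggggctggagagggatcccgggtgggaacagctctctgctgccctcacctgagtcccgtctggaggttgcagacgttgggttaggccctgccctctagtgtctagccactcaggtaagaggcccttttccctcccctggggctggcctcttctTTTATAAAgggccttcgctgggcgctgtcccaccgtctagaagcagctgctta
Krt18, chr15:102027966-102028265, plus strand: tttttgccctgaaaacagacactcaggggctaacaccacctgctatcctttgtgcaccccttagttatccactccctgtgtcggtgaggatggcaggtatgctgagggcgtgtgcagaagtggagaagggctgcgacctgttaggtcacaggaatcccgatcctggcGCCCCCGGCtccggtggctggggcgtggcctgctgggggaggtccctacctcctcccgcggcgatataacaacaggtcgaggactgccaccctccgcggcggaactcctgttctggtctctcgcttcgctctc
Jup, chr11:100397741-100398040, minus strand: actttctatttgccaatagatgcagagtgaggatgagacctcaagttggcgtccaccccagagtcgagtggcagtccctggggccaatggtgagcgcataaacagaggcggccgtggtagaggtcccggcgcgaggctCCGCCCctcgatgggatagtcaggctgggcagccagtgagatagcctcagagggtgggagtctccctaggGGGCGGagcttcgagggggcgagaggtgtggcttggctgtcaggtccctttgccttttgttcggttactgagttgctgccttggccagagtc
TATAAA was found in 13.6% of all 32851 windows and in 5 of the 17 member genes, among them *Krt8*, where the matches on the 2 strands overlap. The first of these *Krt8* matches begins at -3 from the RefSeq start. GCCNNNGGC was found in 16.6% of all windows and in 3 member genes, among them *Krt18*. GGGCGG was found in 35.7% of all windows and in 4 member genes, among them *Jup*. None of the 3 was in the *Krt5* window. A match describes letters in the window and was not tested as a binding site.

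The libraries held 2816, 4067 and 8690 cell barcodes with 22624711, 27814907 and 63505144 UMIs, of which 2069, 3697 and 7547 barcodes passed the filters. Between 18 and 49 barcodes were shared by a pair of libraries. *Tgfbr1* reads come from the 3′ end of the transcript, so its level, 56.8, 62.3 and 51.4 counts per 1000000 UMIs (CPM) in mesenchymal cells, does not check the deletion. Epithelial cells were taken as those with at least 1 *Epcam* UMI (*Epcam* encodes an epithelial adhesion molecule), which gave 295, 449 and 663 cells, or 14.3%, 12.1% and 8.78% of cells. Many of these cells also carried mesenchymal RNA. *Prrx1*, a mesenchymal transcription factor, was found in 55.3%, 57.9% and 59.4% of them, against 90.6%, 83.3% and 90.8% of mesenchymal cells and 26.0%, 7.77% and 8.50% of myeloid cells. The summed level of the 6 mesenchymal markers in the gate was 342, 493 and 635 CPM, highest in the mutant. That of 6 other epithelial markers, *Cdh1*, *Cldn6*, *Cldn7*, *Esrp1*, *Grhl2* and *Trp63*, was 438, 378 and 238 CPM, lowest in the mutant. A second gate, chosen after these values were seen, asked for at least 2 of *Cdh1*, *Cldn6*, *Cldn7*, *Esrp1* and *Grhl2* and for more of them than of the mesenchymal markers. It kept 134, 130 and 133 cells with 77.1, 192 and 120 CPM of mesenchymal markers. These are called marker-resolved cells here, and results are given in them where they differ.

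In epithelial cells the keratins of stratified epithelium led. *Krt17* was the most abundant member, with a mean of 636 CPM over the 3 libraries, followed by *Krt14* at 444 CPM and *Krt15*, another basal type I keratin, at 401 CPM. The most abundant type II keratins were *Krt8* (155 CPM), *Krt5* (137 CPM) and *Krt6a* (128 CPM). Among desmosome genes *Perp*, which encodes a membrane protein that desmosomes of stratified epithelia need, led with 191 CPM, followed by *Dsp* with 168 CPM and *Jup* with 90.5 CPM. Each UMI marks the 3′ end of 1 transcript, so these levels were not divided by gene length.

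The libraries did not rank these genes alike. *Krt17* was at 448, 654 and 807 CPM and *Krt14* at 311, 471 and 550 CPM, lowest in control 1 and highest in the mutant. *Krt15* ran the other way, at 673, 341 and 189 CPM, and was the most abundant member of control 1. Counting error was small beside these gaps, since the exact Poisson interval (95%) of *Krt17* in the mutant was 789 to 825 CPM. The gap between the 2 controls was at least 2-fold for *Krt6a* (84.8 and 199 CPM) and *Dsg3* (4.70 and 10.8 CPM) of 22 members, and for 4.29% of 10887 genes. Neighbours in the order by mean level were therefore often not apart beyond the spread over libraries. *Krt14* and *Krt15* overlapped in range, as did *Perp* and *Dsp*, and *Krt8*, *Krt5*, *Krt18* and *Krt6a*.

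The simple-epithelium pair was present beside the stratified keratins. *Krt8* was at 218, 158 and 90.4 CPM and *Krt18* at 174, 148 and 81.5 CPM. *Krt19*, a type I keratin without a fixed partner, was at 149, 85.4 and 37.1 CPM, and *Krt7*, a simple type II keratin, at 71.1, 57.0 and 34.9 CPM. All 4 genes were highest in control 1 and lowest in the mutant. *Krt10*, which belongs to the cell layers above the basal layer in skin, was at 45.3, 60.8 and 55.1 CPM, whereas its skin partner *Krt1* was at 18.6, 14.4 and 12.0 CPM. *Krt4*, a keratin of mucosal epithelium, was at 16.0, 11.3 and 2.70 CPM. The other keratins that passed the minimum were rare. *Krt16* ranged from 1.71 to 18.5 CPM and *Krt80* from 3.22 to 7.45 CPM, and the remaining 10, *Krt13*, *Krt20*, *Krt23*, *Krt24*, *Krt27*, *Krt33b*, *Krt36*, *Krt75*, *Krt79* and *Krt222*, did not exceed 4.27 CPM in any library.

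Each kind of desmosome protein was represented. The cadherins *Dsg2* (28.0, 36.6 and 18.7 CPM), *Dsc2* (25.2, 38.6 and 18.0 CPM) and *Dsc3* (12.2, 21.03 and 16.9 CPM) were more abundant than *Dsg3* (4.70, 10.8 and 4.37 CPM). The plakophilins *Pkp1* (25.8, 38.2 and 15.5 CPM) and *Pkp3* (31.0, 26.3 and 18.3 CPM) were found at similar levels, and *Pkp2* was lower in every library (5.77, 6.29 and 3.43 CPM). The order placed control 2 highest for 8 of the 10 desmosome genes and control 1 for *Perp* and *Pkp3*. Of the desmosome cadherins of differentiated skin that were outside the rule, *Dsg1a* did not exceed 1.99 CPM and *Dsc1* did not exceed 0.214 CPM.

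**Figure D1:**
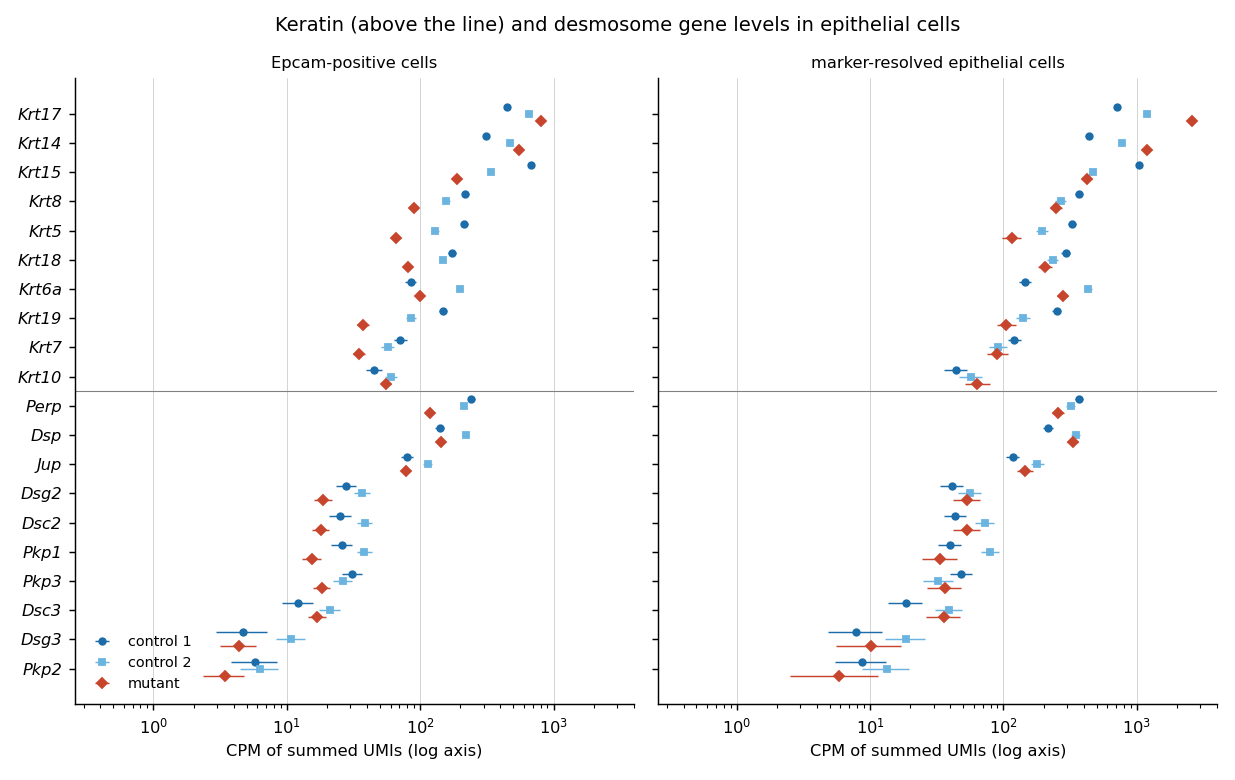
Levels of the 10 most abundant keratins (above the line) and the 10 desmosome genes in *Epcam*-positive cells (left) and marker-resolved cells (right), as CPM of summed UMIs on a log axis, with 1 symbol per library and bars for the exact Poisson intervals (95%). *Krt17* and *Krt14* are lowest in control 1 and highest in the mutant in both panels, while *Krt5*, *Krt15* and *Krt19* run the other way.

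The first comparison asked how far these transcripts belong to the epithelial cells. Nearly all of them did. Of 26 members tested between *Epcam*-positive and *Epcam*-negative cells of the same libraries, 25 were higher in *Epcam*-positive cells, 15 of 16 keratins and 10 of 10 desmosome genes, and 0 were lower (edgeR's quasi-likelihood test with Benjamini-Hochberg adjustment over all genes). Over all genes, 14.9% of 14503 were higher. The median log2 difference was 4.24 for the members and -0.01 for all genes. By DESeq2, and at an unadjusted p under 0.05 by edgeR, 25 were higher and 0 lower as well, without a count of the share of all genes.

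The largest differences were those of *Krt16* (log2 5.57, SE 0.40), the desmocollin *Dsc2* (5.30, SE 0.21) and *Krt6a* (5.30, SE 0.23), followed by *Dsg3* (5.19), *Krt20* (5.12), *Krt17* (4.82), *Krt8* (4.65), *Dsp* (4.62), *Pkp1* (4.56) and *Krt5* (4.49). *Jup* differed by 2.28 (SE 0.13), the smallest difference among the desmosome genes. *Krt10* was the exception, with a difference of 0.12 (SE 0.08, edgeR adjusted p = 0.273). In marker-resolved cells 24 of 25 members tested were higher, against 16.2% of all genes, and *Krt10* was again the exception at 0.12 (edgeR adjusted p = 0.508). The gate itself uses an epithelial gene, and the p-values measure the spread between these 3 libraries, which may be technical. Rare members also reached the minimum of 20 UMIs through these same cells. *Epcam*-positive cells held 8, 112 and 49 of 184 UMIs of *Krt16*, and 22, 65 and 42 of 146 of *Dsg3*. For *Krt20* they held 7, 18 and 10 of 40. The differences of such genes are therefore not independent of the rule that chose them.

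The other epithelial genes behaved alike in this comparison. Of 10 junction genes, among them E-cadherin (*Cdh1*) and claudins, 10 were higher in *Epcam*-positive cells, as were 10 of 10 hemidesmosome and basement membrane genes. Of the 5 cornified envelope genes with enough counts, 4 were higher. The 6 further genes tested were *Pkp4*, *Pnn*, *Kazn*, *Trim29*, *Krtcap3* and *Nectin4*, not all of which encode desmosome proteins. Of these, 4 were higher and 1, the splicing-associated *Pnn*, was lower. Of 10 epithelial transcription factors, 9 were higher and 1, *Klf4*, was lower.

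The members were then followed in the other cell types, each gated by markers of its own, to find which transcripts were present outside the epithelium. Levels there were low for most members. Over the 17 members with at least 100 UMIs in epithelial cells of each library, the median level in mesenchymal cells was 5.53%, 4.06% and 3.54% of that in epithelial cells of the same library, and in myeloid cells, which should lack keratins, 6.15%, 2.82% and 0.414%. *Krt17* was found with a UMI in 62.4%, 67.5% and 68.6% of epithelial cells at median depths of 12505, 10204 and 10174 UMIs. It was found in 24.6%, 9.9% and 4.1% of mesenchymal cells and in 19.8%, 4.9% and 2.0% of myeloid cells. The cells of these same gates were then thinned to 2000 UMIs, without drawing the gates again. The shares for *Krt17* were then 30.6%, 35.7% and 38.8% in epithelial, 4.9%, 4.5% and 1.1% in mesenchymal and 4.7%, 3.1% and 0.0% in myeloid cells. Myeloid cells served here as a rough guide to the background in these droplets. They are not a measure of it, since cell types differ in depth. *Jup*, for example, was at 23.8%, 7.91% and 21.5% of its epithelial level in them. The *Krt17* share in mesenchymal cells was above the myeloid share in each library before thinning, with counting intervals that overlapped in all 3. In control 1 the mesenchymal cells were deeper (median 8116 UMIs against 3294.5 in myeloid cells). By level, *Krt17* was lower there in mesenchymal than in myeloid cells (6.85% against 8.93% of the epithelial level). The medians of the 17 members were above the myeloid level in control 2 and the mutant and below it in control 1. Whether these UMIs come from free RNA or from the mesenchymal cells was not tested.

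*Krt10*, *Jup* and *Krt1* were found at higher shares of their epithelial level. *Krt10* was as abundant in mesenchymal cells (47.3, 55.6 and 46.4 CPM) and in neuronal cells (62.5, 73.8 and 78.8 CPM) as in epithelial cells, and lower in endothelial cells (14.9, 19.9 and 20.8 CPM) and myeloid cells (15.6, 13.5 and 17.8 CPM). Against mesenchymal cells it fell by 1.22 on the log2 scale in endothelial cells (SE 0.24, edgeR adjusted p = 5.07e-04) and by 1.33 in myeloid cells (SE 0.27, edgeR adjusted p = 0.00134), with no overlap between the types. The annotation places *Gm11940* on the opposite strand of *Krt10*, and reads of such a pair can be told apart only by strand. This does not set *Krt10* apart, since *Krt5*, *Krt6a*, *Krt7*, *Krt8*, *Krt75*, *Krt80*, *Dsp* and *Dsg2* also have genes on the opposite strand. *Krt1*, the usual partner of *Krt10*, was at 8.30, 4.13 and 6.36 CPM in mesenchymal cells, which is 44.7%, 28.7% and 53.2% of its epithelial level. Neuronal cells held 0, 4 and 39 UMIs of *Krt1*, and endothelial, myeloid and myogenic cells held at most 2 UMIs in any library.

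*Jup* was the 1 desmosome gene called higher in another type than in mesenchymal cells. Plakoglobin also takes part in adherens junctions, which endothelial cells have without desmosomes. Endothelial cells held 61.9, 87.0 and 113 CPM, neuronal cells 28.9, 49.2 and 61.0 CPM and mesenchymal cells 13.6, 13.5 and 10.97 CPM. The endothelial and mesenchymal levels did not overlap, and the log2 difference was 2.98 (SE 0.24, edgeR adjusted p = 8.87e-09). The neuronal difference was 1.95 (SE 0.39, edgeR adjusted p = 0.00125). It rests on the mutant library, which held 331 of the neuronal cells against 23 and 16 in the controls. Without the mutant 0 members were higher in neuronal cells, and without control 1 there were 3.

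In endothelial cells, *Jup* was the 1 of 13 members tested that was higher than in mesenchymal cells, where 17.9% of all genes were, and 3 were lower (*Krt1*, *Perp* and *Krt10*), where 17.2% of all genes were. In myeloid cells 0 of 14 were higher by edgeR, 0 at an unadjusted p under 0.05 and 0 by DESeq2, against 20.1% of all genes, and *Krt10* alone was lower, against 22.2%. In glial cells 0 of 13 were higher by edgeR, 0 at an unadjusted p under 0.05 and 0 by DESeq2, against 5.57%. In neuronal cells 1 of 14 was higher, against 10.4%. In myogenic cells 2 of 15 were higher, against 21.8%, and 1 (*Krt1*) was lower, against 22.6%. The 2 were *Krt8*, at 18.4, 5.82 and 4.04 CPM against 12.6, 5.19 and 1.54 CPM (log2 0.98, SE 0.36, edgeR adjusted p = 0.0345), levels that overlap and are close to those in myeloid cells (19.1, 7.49 and 0 CPM), and the hair keratin *Krt33b*. *Krt33b* had 3, 12 and 6 UMIs in myogenic cells and 0, 1 and 2 in the far more numerous mesenchymal cells (edgeR adjusted p = 6.39e-06). It passed the filter on low counts only through the myogenic cells, so its difference is not independent of that filter. With any 1 library left out, 1 member was higher in myogenic cells in place of 2 (*Krt8* without control 2 and *Krt33b* otherwise), and without control 2 *Krt80* was higher in myeloid cells in place of 0 members. Shares of all genes were not counted with a library left out. The counts of lower members depended on the epithelial gate, since the marker-resolved gate returns *Epcam*-positive cells to the other types. With it, the *Krt17* share of mesenchymal cells was 25.9%, 14.7% and 9.1%, and 10 of 19 members were lower in myeloid, 10 of 17 in myogenic, 7 of 17 in endothelial, 4 of 18 in glial and 4 of 18 in neuronal cells than in mesenchymal cells. The share of all genes lower with this gate was not counted, so these counts have no background beside them. Median log2 differences of the members were -1.64, -1.24, -1.20, -0.92 and -0.50 in the same order. Those of all genes were -0.20, -0.12, -0.08, -0.13 and -0.07. *Krt222* had 0, 2 and 21 UMIs in neuronal cells, and 0 in endothelial, myeloid, myogenic and glial cells of the 3 libraries, which allows up to 3 UMIs in each.

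**Figure D2:**
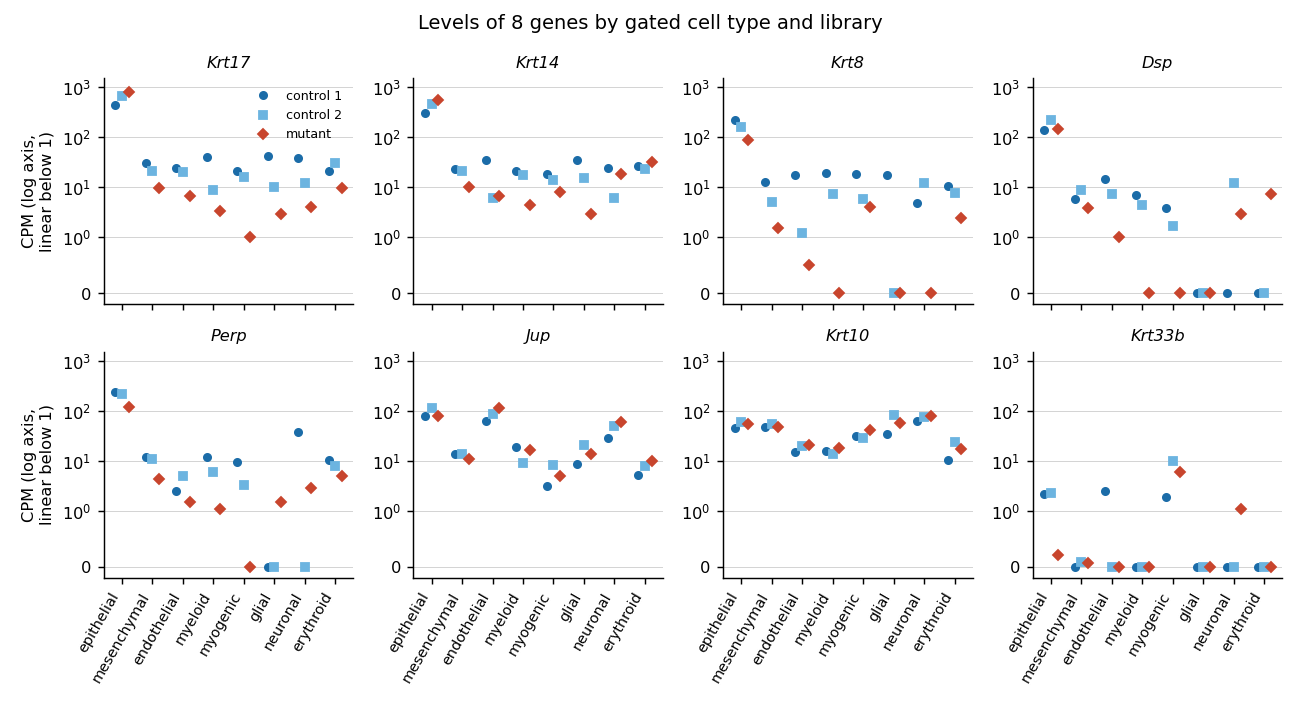
CPM of 8 members in 8 gated cell types, on an axis that is logarithmic above 1 and linear below it, with 1 symbol per library. *Krt17*, *Krt14*, *Krt8*, *Dsp* and *Perp* are far above the other types in epithelial cells, *Jup* reaches 113 CPM in endothelial cells, and *Krt10* is as high in mesenchymal and neuronal cells as in epithelial cells.

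The second comparison split the epithelial cells by *Krt6a*, a type II keratin of periderm and appendage epithelium, into cells with and without a *Krt6a* UMI. The positive cells numbered 43, 99 and 148, or 14.6%, 22.05% and 22.3% of *Epcam*-positive cells. They were deeper, with medians of 14854, 12797 and 14308.5 UMIs against 12138, 9191.5 and 9321 in the negative cells. *Krt6a* itself was left out of the test. Their mesenchymal marker levels were 109, 470.3 and 641 CPM against 391, 503 and 632 CPM, and the part of this in the result was not tested. Most members were higher in the *Krt6a*-positive cells. Of 23 members tested, 17 were higher (8 of 13 keratins and 9 of 10 desmosome genes) and 0 were lower, against 4.91% of 11934 genes higher and 1.33% lower. The median log2 difference was 1.26 for the members and -0.03 for all genes. At an unadjusted p under 0.05, 2 members were lower by edgeR, and by DESeq2 0 were. With each cell thinned to 2000 UMIs and the gates drawn again on the thinned counts, 9 of the 11 members that could still be tested were higher. Without library as a block 9 of 23 were. The shares of all genes in these settings were not counted.

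*Krt16* had 8.59, 59.97 and 15.7 CPM in *Krt6a*-positive cells, from 7, 107 and 45 UMIs, and 0.259, 1.18 and 0.593 CPM in negative cells, from only 1, 5 and 4 UMIs. Its fitted log2 difference of 5.21 (SE 0.33, edgeR adjusted p = 6.82e-06) rests on these few counts. *Krt16* also passed the filter on low counts only through the *Krt6a*-positive cells, as did *Dsg3* and *Krt80*. Their differences, which are among the higher members counted above, are therefore not independent of that filter. *Krt17*, the partner of *Krt6a* in many tissues, was at 1706, 1605 and 2186 CPM against 183, 256 and 222 CPM, a difference of 3.06 (SE 0.11, edgeR adjusted p = 1.50e-07). *Krt14* was at 830, 1020.1 and 1098 CPM against 202, 241 and 318 CPM, a difference of 1.97 (SE 0.07, edgeR adjusted p = 1.50e-07). For these 3 keratins every positive value lay above every negative value. *Krt80* was also higher (1.87, SE 0.34), as were *Krt7*, *Krt8*, *Krt5* and *Krt18*, by 1.26, 0.96, 0.74 and 0.40.

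Among the desmosome genes *Dsg3*, *Pkp1* and *Dsc2* had the largest differences. *Dsg3* was at 22.1, 29.2 and 10.1 CPM against 1.03, 3.05 and 1.93 CPM (log2 3.16, SE 0.36), *Pkp1* at 102, 101 and 33.2 CPM against 9.83, 11.8 and 8.001 CPM (2.84, SE 0.22) and *Dsc2* at 89.5, 93.6 and 37.7 CPM against 11.6, 15.5 and 9.63 CPM (2.48, SE 0.18). *Dsc3* followed with 2.04, *Dsp* with 1.59, *Dsg2* with 1.41 and *Jup* with 1.40. *Dsp* in positive cells was 385, 422 and 227 CPM against 87.9, 135 and 108 CPM. *Pkp3* (0.85) and *Perp* (0.52) were higher by less. *Pkp2*, the plakophilin of heart and simple epithelia, was at 9.81, 13.5 and 3.49 CPM against 4.91, 3.29 and 3.41 CPM, which did not pass (edgeR adjusted p = 0.184).

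The keratins that did not follow were *Krt15* (0.08), *Krt10* (-0.10), *Krt19* (-0.34), *Krt1* (-0.69) and *Krt4* (0.83), none past the threshold. In marker-resolved cells, where the depths of the positive and negative cells were close (15125.5, 11304 and 8657 against 14346.5, 11415.5 and 9320.5 UMIs), 13 of 21 members were higher and 2 were lower, against 8.36% and 4.87% of 7988 genes. The 2 were *Krt19*, at 138, 89.4 and 71.2 CPM against 292, 172 and 127 CPM (-0.94, SE 0.13, edgeR adjusted p = 3.99e-05), and *Krt15*, at 978, 366 and 320 CPM against 1068, 527 and 486 CPM (-0.35, SE 0.09, edgeR adjusted p = 0.0139). *Krt16* had 0 UMIs in the marker-resolved *Krt6a*-negative cells of all 3 libraries, which allows up to 3 UMIs in each, and 7, 15 and 36 UMIs in the positive cells, so no test was made of it there. *Krt18*, *Pkp3* and *Krt80* no longer passed.

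Of the other epithelial genes, 5 of 10 junction genes, 6 of 10 hemidesmosome genes, 3 of 3 envelope genes with enough counts, 2 of the same 6 further genes and 5 of 10 transcription factors were higher in *Krt6a*-positive cells, and 0 were lower. Those included the plakins *Ppl* (1.91) and *Evpl* (1.46), the 14-3-3 protein gene *Sfn* (1.61), *Nectin4* (2.33) and the transcription factor genes *Grhl1* (2.51), *Grhl3* (1.93) and *Ovol1* (1.86).

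The third comparison split the same cells by *Trp63*, which encodes p63, the transcription factor of basal epithelial cells. Cells with a *Trp63* UMI numbered 100, 158 and 201, with median depths of 16613, 15079.5 and 12851 UMIs against 10862, 8653 and 9048.5 UMIs. Their mesenchymal marker levels were 180, 434 and 628 CPM against 456, 546 and 638 CPM, and the part of this in the result was not tested. Few members differed. Of 24 tested, 0 were higher and 2 were lower by edgeR, against 0.0171% and 0.103% of 11692 genes. At an unadjusted p under 0.05, 5 were higher and 8 lower, and by DESeq2 1 (*Perp*) was higher and 2 were lower. Shares of all genes were not counted for these, so they have no background beside them. The 2 lower by edgeR were *Krt16*, at 1.04, 3.50 and 0.593 CPM against 2.18, 32.1 and 7.53 CPM (-3.06, SE 0.37, edgeR adjusted p = 0.0336), and *Krt8*, at 171, 124 and 62.9 CPM against 250.3, 188 and 105 CPM (-0.63, SE 0.08, edgeR adjusted p = 0.0336). Over the libraries, levels of both genes overlapped between positive and negative cells. *Krt16* had only 8, 112 and 49 UMIs in the positive and negative cells together.

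*Krt5*, the basal type II keratin, was at 371, 175 and 78.9 CPM in *Trp63*-positive cells against 104, 89.9 and 59.3 CPM. It was higher in each library, by a log2 difference of 1.08 (SE 0.22) that did not pass (edgeR adjusted p = 0.131). *Krt5* did pass with at least 2 *Epcam* UMIs, with *Epcam* and another epithelial marker, without a filter on low counts, without control 1 and without the mutant. In the setting with another epithelial marker, *Trp63* was itself among the markers. All 100, 158 and 201 *Trp63*-positive cells therefore stayed, while the negative cells fell from 195, 291 and 462 to 91, 181 and 329. That setting is not an independent check of this split. In marker-resolved cells it differed by 0.69 (SE 0.19, edgeR adjusted p = 0.0756). There 0 of 21 members were higher by edgeR (1 at an unadjusted p under 0.05) and 6 were lower, against 0.604% and 1.75% of 8775 genes. The 6 were *Krt17* (-1.87, SE 0.31), the simple keratins *Krt8* (-1.41, SE 0.12), *Krt7* (-1.35, SE 0.17), *Krt18* (-1.30, SE 0.13) and *Krt19* (-1.15, SE 0.14), and *Krt6a* (-1.24, SE 0.28). In these cells *Krt8* was at 216, 153 and 121 CPM against 559, 414 and 312 CPM and *Krt18* at 161, 147 and 123 CPM against 458, 347 and 244 CPM, with no overlap for either gene. No desmosome gene passed by edgeR in either gate. The counts of *Epcam*-positive cells rested on single libraries, since without control 1 there were 2 higher and 8 lower members, without control 2 there were 0 and 0, and without the mutant 3 and 1. Here too the shares of all genes were not counted. Of the 10 hemidesmosome genes, which anchor basal cells to the basement membrane, 0 passed in *Epcam*-positive cells, with a median of 0.97. *Col17a1* (1.46) and *Dst* (1.34) passed in marker-resolved cells. Of the 10 junction genes, 1 (*Cldn7*, -1.03) was lower in *Epcam*-positive cells, and 3 of 9 tested were lower in marker-resolved cells. The 3 were *Cldn3* (-1.94), *Cldn7* (-1.82) and *Cldn6* (-0.73), and *Cldn6* and *Cldn7* also define that gate. Among 8 transcription factors tested there, *Klf5* (-0.60) was lower. No envelope gene and none of the same 6 further genes passed in either gate.

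**Figure D3:**
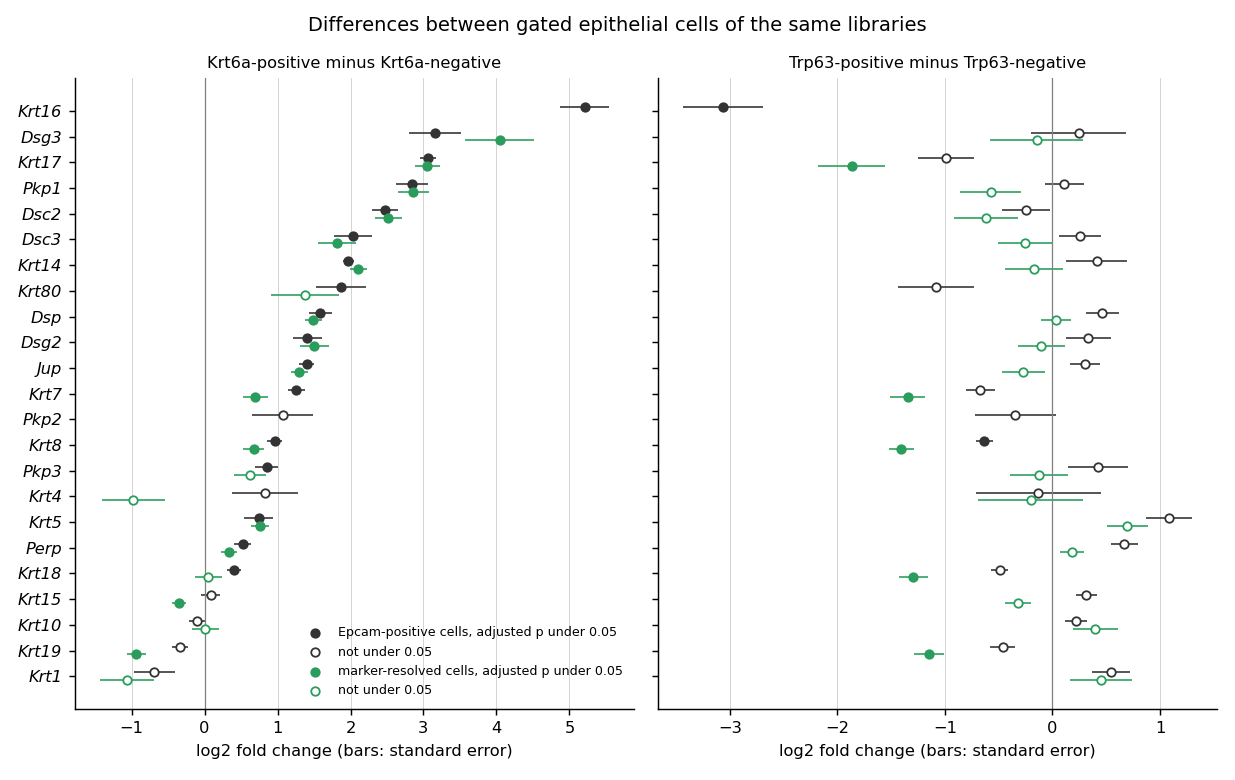
Log2 differences of the members between *Krt6a*-positive and *Krt6a*-negative cells (left) and between *Trp63*-positive and *Trp63*-negative cells (right), with bars for the standard error, in *Epcam*-positive cells (grey) and marker-resolved cells (green), and filled points for an adjusted p under 0.05. The desmosome genes lie above 0 on the left, and on the right *Krt17* and the simple keratins lie below 0.

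The last comparison set the mutant library against the controls in epithelial cells. With 1 mutant library there is no test of genotype, and fewer cells of a kind cannot be told apart from less RNA per cell. A member is called here when it was at least 2-fold above or below each control. Most members were lower in the mutant in the summed UMIs of *Epcam*-positive cells. Of 24 members with enough counts, 17 lay below both controls and 2 above both, against 37.2% and 25.1% of 12450 genes. The median log2 ratio to the mean of the controls was -0.77 for the members and -0.03 for all genes. A lower level was not particular to the members. The other epithelial markers named above were also below both controls. They were *Cdh1* (80.5, 94.2 and 46.5 CPM), *Cldn6* (66.0, 68.9 and 65.0 CPM), *Cldn7* (163, 89.6 and 48.2 CPM), *Esrp1* (49.3, 45.9 and 28.7 CPM), *Grhl2* (27.3, 30.8 and 16.1 CPM) and *Trp63* (51.7, 48.7 and 33.4 CPM). Thinned to 2000 UMIs per cell, the median of the 16 members with enough counts was -0.02, against 0.05 for all genes, with 5 below and 6 above both controls. The *Epcam* gate was drawn again on the thinned counts, so depth and the choice of cells cannot be told apart in this value. As means over cells the median was -0.26, with 12 of 24 below both controls. Past 2-fold, 0 members were higher and 2 were lower, *Krt19* and *Krt4*, against 1.55% and 1.69% of genes. Measured against control 2 alone 8 of 25 members were lower past 2-fold, against 476 of 12590 genes. Against control 1 alone 9 of 25 were lower and 1 was higher, against 629 and 865 of 12575 genes. The higher one, *Krt16*, had enough counts only through the mutant. Among the lower ones, *Krt75* had enough only through control 1 and *Krt23* only through control 2. The counts therefore depend on which control is used. With TMM scaling, 239 genes were higher and 162 lower in place of 193 and 210, and the counts of members stayed at 0 and 2. The controls are the same libraries in all of these values.

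For 14 lower members and 1 higher member the mutant lay beyond both controls, and its log2 ratio to their mean exceeded the gap between them. This rule does not ask for a full gap between the mutant and the nearer control. The share of all genes that met it was not counted, so these counts have no background beside them. The higher one was *Krt17* (807 CPM against 448 and 654 CPM, log2 0.58, gap 0.55), which was 0.30 above the nearer control. *Krt19* was 37.1 CPM against 149 and 85.4 CPM (-1.60, gap 0.80), *Krt15* was 189 CPM against 673 and 341 CPM (-1.34, gap 0.98) and *Krt5* was 66.2 CPM against 214 and 129.96 CPM (-1.33, gap 0.72). *Krt8* (-1.03, gap 0.47) and *Krt18* (-0.98, gap 0.24) stood at similar ratios. *Krt4* was 2.70 CPM, from 26 UMIs, against 16.0 and 11.3 CPM (-2.31, gap 0.51). The lower desmosome genes by this rule were *Pkp1*, *Pkp2*, *Pkp3*, *Dsg2*, *Dsc2* and *Perp*. The ratios of *Dsp*, *Jup*, *Dsg3* and *Dsc3* were smaller than the gap.

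These differences were smaller in marker-resolved cells, where the mesenchymal marker level of the mutant (120 CPM) lay between those of the controls. There the members' median ratio was -0.22, against -0.12 for all genes. Of 23 members, 11 lay below both controls and 4 above both, against 46.1% and 21.9% of 8608 genes. *Krt8* was 249 CPM against 367 and 268 CPM (-0.33, gap 0.46), *Krt15* 422 CPM against 1044 and 465 CPM (-0.73, gap 1.17) and *Krt4* 10.9 CPM (15 UMIs) against 28.1 and 11.9 CPM (-0.75, gap 1.24), all smaller than the gap. *Krt5* was 115 CPM against 326 and 195 CPM (-1.13, gap 0.74). With *Krt18*, *Krt1*, *Pkp2* (8 UMIs in the mutant) and *Perp* it made up the 5 lower members that met the same rule. The share of all genes that met it was not counted here either. *Krt19* was 105 CPM against 251 and 141 CPM (-0.84, gap 0.84), a difference no larger than the gap.

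*Krt17*, by contrast, was further above the controls there. It was 2592 CPM in the mutant against 708 and 1199 CPM (1.49, gap 0.76). *Krt14* was 1191 CPM against 436 and 771 CPM (1.04, gap 0.82). *Krt16* was 26.1 CPM, from 36 UMIs, against 2.77 and 7.75 CPM, from 7 and 15 UMIs (2.50, gap 1.48). This depended on the gate. In *Epcam*-positive cells *Krt16* was at 1.71, 18.5 and 5.10 CPM, from 8, 112 and 49 UMIs (-0.14, gap 3.44), with the mutant between the controls. Past 2-fold 2 members were higher (*Krt16* and *Krt17*), against 0.349% of genes, and 0 were lower, against 2.94%. Enough counts meant at least 20 UMIs in the mutant or in each control. *Krt16* met this only through the mutant, so its call is not independent of that minimum. The *Krt6a*-positive share of marker-resolved cells was 25.4%, 33.8% and 38.3%, and within the *Krt6a*-positive cells *Krt17* was at 1860, 2433 and 6062 CPM, against 295, 438 and 396 CPM in the negative cells. The mutant was above both controls in the positive cells, 34, 44 and 51 in number, and between them in the negative cells. In *Epcam*-positive cells *Krt6a* was at 84.8, 199 and 100.4 CPM, with the mutant between the controls. The *Trp63*-positive share of marker-resolved cells was 53.0%, 43.1% and 27.8%, against 33.9%, 35.2% and 30.3% of *Epcam*-positive cells. The marker-resolved gate thus changed the mix of cells differently in each library. What part this had in the levels of *Krt17*, *Krt14* and *Krt16* was not tested.

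**Figure D4:**
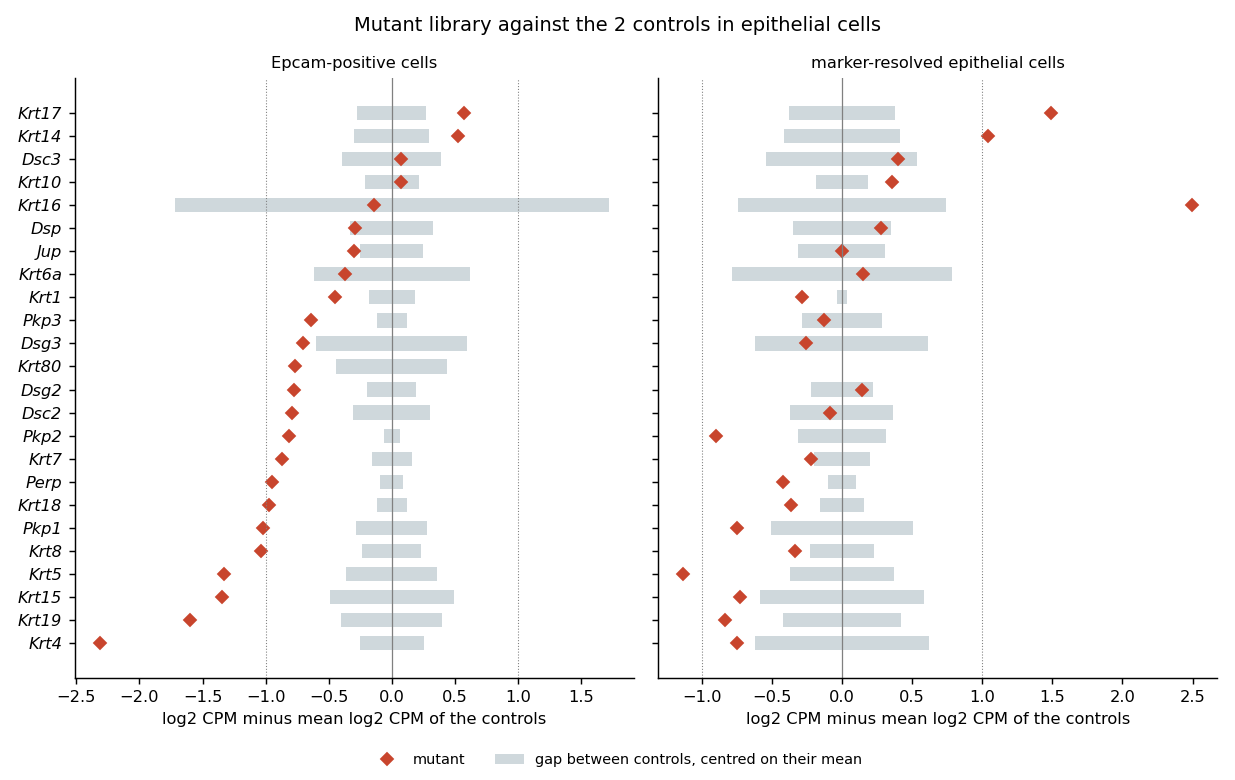
Log2 ratio of the mutant level to the averaged control levels for each member with enough counts (red diamonds), with grey bars as wide as the gap between the controls and dotted lines at 2-fold, in *Epcam*-positive cells (left) and marker-resolved cells (right). Most diamonds lie left of 0 on the left, and on the right *Krt16*, *Krt17* and *Krt14* lie furthest above 0.

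The members' summed share of epithelial UMIs depended on the gate. Keratins took 0.244%, 0.237% and 0.204% of UMIs in *Epcam*-positive cells and 0.382%, 0.392% and 0.538% in marker-resolved cells, so the mutant was lowest in the first and highest in the second. Desmosome genes took 0.0595%, 0.0724% and 0.0434% in the first and 0.0906%, 0.116% and 0.0960% in the second, where the mutant lay between the controls.

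The ratio of type I to type II keratin UMIs changed in the same direction in both gates. It was 2.87 and 3.09 in the controls and 5.56 in the mutant in *Epcam*-positive cells, with exact intervals (95%, counting error only) of 2.75 to 2.99, 2.98 to 3.21 and 5.35 to 5.78. In marker-resolved cells it was 2.73, 2.80 and 6.00. Split by *Krt6a*, it was 2.54, 2.47 and 6.60 in marker-resolved positive cells and 2.86, 3.58 and 4.58 in negative cells. The controls were close to each other and the mutant above them in each of these, apart from the *Krt6a*-negative cells, where the controls differed as well. In mesenchymal cells the ratio was 4.24, 5.35 and 5.85, but it was made up of other genes. *Krt14*, *Krt15* and *Krt17* held 56.4%, 46.5% and 35.8% of the type I UMIs there, against 79.1%, 81.8% and 89.4% in *Epcam*-positive cells. The ratios of the 2 cell types are therefore not like quantities.

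Single partner pairs did not all follow. The basal pair *Krt14* to *Krt5* had ratios of 1.46, 3.62 and 8.31 in *Epcam*-positive cells and 1.34, 3.95 and 10.3 in marker-resolved cells, so the 2 controls differed by more than their counting intervals as well. *Krt17* to *Krt6a* was 5.28, 3.28 and 8.04 and *Krt19* to *Krt7* was 2.09, 1.5 and 1.07. The simple pair *Krt18* to *Krt8* stayed at 0.801, 0.936 and 0.901 in *Epcam*-positive cells and at 0.797, 0.877 and 0.819 in marker-resolved cells, and the intervals of the mutant (0.817 to 0.994 and 0.697 to 0.962) overlapped those of both controls. UMI ratios are ratios of transcripts and not of proteins.

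**Figure D5:**
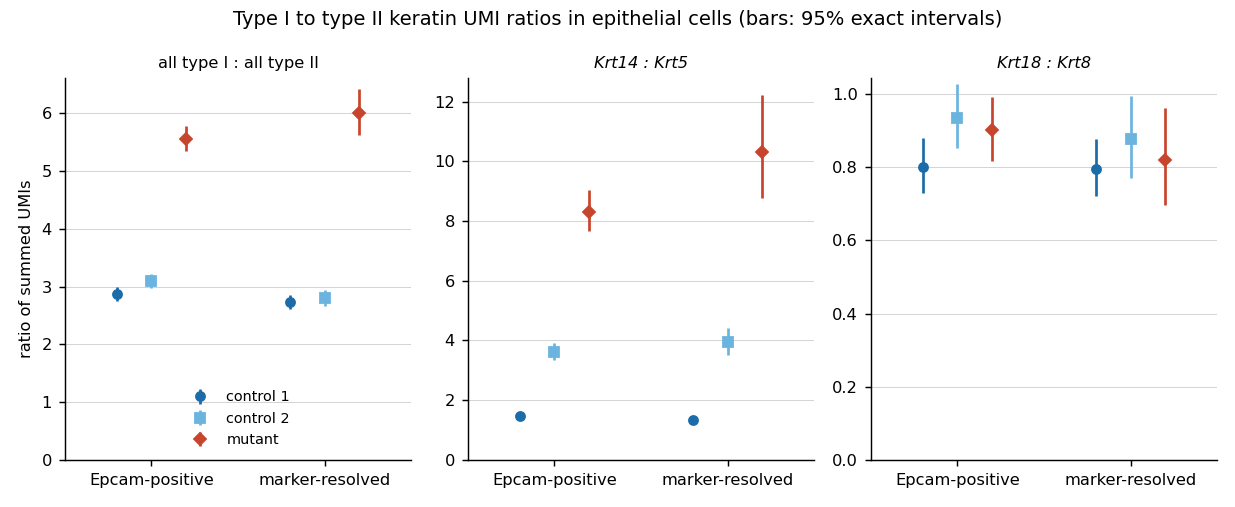
Ratio of summed UMIs of all type I to all type II keratins, of *Krt14* to *Krt5* and of *Krt18* to *Krt8* in *Epcam*-positive and marker-resolved cells, with 1 symbol per library and bars for the exact intervals (95%). The mutant is above both controls in the first and second panels, and the 3 libraries overlap in the third.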

How the data were processed

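Raw UMI counts per gene and barcode were deposited by the authors as 1 matrix per library, without normalization. The submitters' processing notes name Cell Ranger 3.1.0 and the matrix header 4.0.0, with the mm10 build. Barcodes needed at least 500 genes and at most 10% mitochondrial UMIs, which 699, 246 and 579 failed. Scrublet's own threshold called 0 doublets, so the highest scores were left out at 0.8% per 1000 barcodes (48, 124 and 564). *Epcam* defined epithelial cells, and other types needed at least 2 of 6 markers. Levels are CPM of UMIs summed over cells, and intervals cover counting error only. Gates were compared by edgeR 4.0.16 with library as a block, since both gates of a pair came from the same library, with Benjamini-Hochberg adjustment over all genes and a threshold of 0.05. DESeq2 1.42.0 was an alternative. The tests were checked on simulated counts. Python 3.11.15, scipy 1.17.1, scanpy 1.11.5 and R 4.3.3 were used. Named were the 15 most abundant members, all desmosome genes, up to 10 called members per comparison and direction, and, for genotype, members past 2-fold and up to 5 rises and 5 falls at 50 CPM or more that exceeded the gap between the controls. Members and lists were chosen with earlier results of these data known.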

Additional observations from a re-analysis of the deposited data

Results flagged for a closer look

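The log2 difference of some members within a gate had opposite signs in the genotypes, with both controls on one side of 0 and the mutant on the other. Several values lay close to 0, such as -0.032 for *Dsc3* in the mutant and 0.018 for *Dsc2* in control 2. No interval was computed for these values, so the sign of those near 0 is uncertain. With 1 mutant library the difference between the genotypes was not tested.

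In *Epcam*-positive cells split by *Krt6a*, control 1 had a log2 difference of 0.49 for *Krt15*, control 2 of 0.073 and the mutant of -0.36. Split by *Trp63*, the difference of *Krt14* was 1.52 and 0.28 in the controls and -0.44 in the mutant. Among desmosome genes split by *Trp63*, *Jup* was at 0.76, 0.32 and -0.077, *Pkp1* at 0.30, 0.37 and -0.41, *Pkp3* at 1.48, 0.14 and -0.25, *Dsc2* at 0.22, 0.018 and -1.04 and *Dsc3* at 0.87, 0.22 and -0.032. In marker-resolved cells, *Trp63*-positive cells of the mutant had 3 UMIs of *Pkp1*, 9 of *Pkp3* and 6 of *Dsc2*, against 43, 41 and 67 in the negative cells.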

How the results depend on the processing

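Counts that crossed 1.5 times or the threshold, and shares or ratios that moved by more than the spread between replicates, were as follows, with the reported value in brackets. For the thinned setting the gates were drawn again on the thinned counts. Thinned to 2000 UMIs per cell, which left 11 members to test in the *Krt6a* split (23) and 11 in the *Trp63* split (24), 9 (17) were higher and 1 (0) lower in *Krt6a*-positive cells and 0 (2) lower in *Trp63*-positive cells, 0 of 16 (2 of 24) were past 2-fold lower in the mutant, and the log2 ratio of *Krt18* was 0.086 in place of -0.98. Without the replicate block (the library), 9 were higher in *Krt6a*-positive cells, 0 lower in *Trp63*-positive cells and 1 (2) higher in myogenic cells. With at least 2 *Epcam* UMIs, 1 was lower in *Krt6a*-positive cells, 1 (0) higher and 6 lower in *Trp63*-positive cells, 1 (0) higher in myeloid and 1 in myogenic cells, and the keratin share had a log2 ratio of -0.29 (-0.24). With *Epcam* and another epithelial marker these were 1, 1, 7, 1, 1 and -0.37, and 4 members were past 2-fold lower, against 198 of 12177 genes. *Trp63* was among the markers of this setting, so its counts for the *Trp63* split are not an independent check. In marker-resolved cells, 2 were lower in *Krt6a*-positive and 6 in *Trp63*-positive cells, 1 was higher in myeloid and 1 in myogenic cells, 2 (0) were past 2-fold higher and 0 lower, and the log2 ratios were 0.47 for the keratin share, -0.094 (-0.60) for the desmosome share and 1.12 (0.90) for type I to type II. Without a filter on low counts, 1 was lower in *Krt6a*-positive cells, 5 higher and 8 lower in *Trp63*-positive cells, 1 higher in myeloid and 5 (1) in neuronal cells. By DESeq2, 1 was higher in *Trp63*-positive and 1 in myogenic cells. As means over cells, 1 member was past 2-fold lower, against 189 of 12450 genes, and the keratin and desmosome shares were 0.26 and -0.16. With doublets kept the keratin share was -0.34. In *Krt6a*-negative cells 1 of 20 members was past 2-fold lower, against 161 of 11770 genes. In *Krt6a*-positive cells 8 of 22 were, against 130 of 9851 genes. Counts of members between gates in this paragraph are given without shares of all genes, so they have no background beside them. The cause of these shifts was not tested.

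Leaving out 1 library at a time, members higher in *Epcam*-positive cells numbered 25 to 27, higher in *Krt6a*-positive cells 13 to 18 and lower 0, higher in *Trp63*-positive cells 0 to 3 and lower 0 to 8. Those higher in other types numbered 1 for endothelial, 0 for glial, 0 to 1 for myeloid, 1 for myogenic and 0 to 3 for neuronal cells. For these gate comparisons the shares of all genes were not counted. Members past 2-fold in the mutant numbered 0 to 1 higher and 8 to 9 lower. Of 12575 to 12590 genes, 301 to 865 were higher and 476 to 629 lower. The log2 ratios were -0.26 to -0.22 for the keratin share, -0.74 to -0.45 for the desmosome share and 0.85 to 0.95 for type I to type II.

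With 1 mutant library, genotype, library preparation and cell recovery cannot be told apart. Levels from few UMIs, such as those of *Krt16*, *Krt4*, *Pkp2* and *Krt33b*, are less certain, and 43 *Krt6a*-positive cells in control 1 limit what that split can show. The marker-resolved gate was chosen after the data were seen, and its mutant cells were shallower, with a median of 9306 UMIs against 14445.5 and 11415.5.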

Other observations

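Within single marker-resolved cells, thinned to 2000 UMIs, some members rose and fell together. These are Pearson correlations of ln(1 + UMI) over the cells of 1 library, which share their depth and library, and they are descriptions. *Krt17* and *Krt6a* had 0.54, 0.66 and 0.68 in control 1, control 2 and the mutant, *Krt14* and *Krt17* had 0.35, 0.64 and 0.65, *Krt14* and *Krt6a* had 0.25, 0.62 and 0.52, and *Krt6a* and *Dsp* had 0.33, 0.48 and 0.31. *Krt15* and *Krt19* had 0.24, 0.33 and 0.44. Most pairs across these sets were negative in each library. The exceptions were *Krt19* with *Krt17* (0.04, -0.14 and -0.02) and with *Krt6a* (-0.01, -0.24 and 0.002). *Krt15* and *Krt14* had -0.27, -0.23 and -0.31, and *Krt19* and *Krt14* had -0.22, -0.25 and -0.18. The filament partners *Krt8* and *Krt18* had 0.26, 0.43 and 0.22.

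*Krt5* was found with a UMI in 80.6%, 54.6% and 47.4% of marker-resolved cells, and in 36.1%, 24.6% and 22.6% after thinning to 2000 UMIs. The thinned shares of *Krt5* in mesenchymal cells were 1.9%, 2.0% and 1.0%. *Krt15* was in 85.8%, 63.1% and 56.4% of marker-resolved cells and in 63.2%, 33.1% and 37.6% after thinning, against 8.1%, 4.7% and 2.4% in mesenchymal cells, so the order of control 2 and the mutant for *Krt15* changed with thinning.

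*Krt15* was at 106 CPM in the endothelial cells of control 1, from 43 UMIs in 23 cells, against 9.95 and 2.54 CPM in control 2 and the mutant.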
